A study of Mus musculus with 34 samples.

Results

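Txnip and its relatives form a small set of genes centred on the transcriptional response to glucose, and 5 symbols were chosen for it by name: Txnip, Arrdc4, Arrdc3, Mlx and Mlxip. Of these 5 genes, 4 were listed among the 22309 genes of the series. The culture table held 4 of them, all but Arrdc4, and the tumour table held 2, Txnip and Mlxip. Arrdc4 is listed in neither table and has no value here. Txnip had drawn attention through its high level in log-phase cultures treated with DkkMo relative to scrMo, so the values from log-phase DkkMo and scrMo cultures are described without a test.

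Thioredoxin-interacting protein, the product of Txnip, is an alpha-arrestin that binds thioredoxin and promotes removal of glucose transporters from the cell surface. Its gene is among the best known targets of MondoA, the product of Mlxip, which pairs with the protein Mlx and responds to glucose-6-phosphate. The pair binds carbohydrate response elements, which are built from separated pieces of the E-box sequence. Arrdc4 and Arrdc3 encode other alpha-arrestins, of which Arrdc4 is also a known MondoA target.

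The cells were MOSJ-Dkk-1, a mouse osteochondral sarcoma line labelled with red fluorescent protein in which a CMV promoter drives constitutive human Dkk-1, an inhibitor of canonical Wnt signalling. In culture they were left without morpholino (NT), given DkkMo, a vivo morpholino against the Dkk-1 transcript, or given scrMo, its mismatched control, both at 5 µM. Each treatment was sampled in 3 cultures in logarithmic growth after 6 days with fresh medium every 2 days, and in 3 cultures under nutritional stress, which were held at confluence for 48 h and had no fresh medium for 4 days. Tumours of the same line were raised in hind limbs of 2-month-old nude (NU/J) mice, which lack a functional Foxn1 gene and therefore most T cells, and mice were given only saline (NT), doxorubicin (DRB), DkkMo or the combination, with 4 tumours each. All cultures and tumours carried the human Dkk-1 transgene, which mouse genome counts do not measure, so the blocked transcript could not be used to check the labels. The sources do not say whether the 3 cultures of a group were grown independently, and p-values then measure only the spread between these samples.

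The culture libraries held 25.9 to 44.8 megareads on listed genes and the tumour libraries 26.9 to 125 megareads. Of 12 osteoblast and chondroblast markers, 8 were listed in the cultures, where Spp1, Runx2, Sox9, Col1a1 and Col1a2 had reads in every library, and 9 were listed in the tumours. The tumours had been fixed with formaldehyde before RNA was recovered, and between 118 and 1985 of the listed genes were at 0 in a given tumour, against 0 to 11 in a culture. These tumour libraries stood apart from the cultures in that respect, and values from them are given tumour by tumour.

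Txnip (ENSMUSG00000038393) is on chromosome 3 at 96557957 to 96561883 on the plus strand of GRCm38, with 3123 bases of exon in the GENCODE annotation. Its promoter is shown because it carries the type of element through which MondoA and Mlx act. The RefSeq start site (GRCm38.p6) lies immediately after the 120 bases printed from chr3:96557837-96557956, plus strand, and capitals mark a match to CACGNG and CNCGNG with 5 bases between them, N being any base, a loosely written carbohydrate response element, at 85 to 69 bases before the start. The promoter of Mlx is shown beside it because it holds a single complete E-box, CACGTG, in capitals, within chr11:101087217-101087276, plus strand, at 40 to 35 bases before its RefSeq start.
Txnip: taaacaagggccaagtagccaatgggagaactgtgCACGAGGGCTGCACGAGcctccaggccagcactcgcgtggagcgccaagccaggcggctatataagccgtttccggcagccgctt
Mlx: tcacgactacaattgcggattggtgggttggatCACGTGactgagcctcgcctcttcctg
Both strands of the 250 bases before each RefSeq start were searched. The Txnip type of match occurred in 0.280% of 32851 such windows, and CACGTG occurred in 6.02% of them. Arrdc4 also had CACGTG, at 193 to 188 bases before its start, and the windows of Arrdc3 and Mlxip held neither set of letters. A match of letters describes the window and was not tested as a binding site.

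On the opposite strand, Gm15441 (ENSMUSG00000074398), a gene annotated as antisense, runs across the whole of Txnip from 96555765 to 96566801 on chromosome 3. Its exons share 606 bases with those of Txnip in 2 stretches, which is 19.4% of the exonic length of Txnip and 36.2% of that of Gm15441. The strandedness of the libraries and the handling of overlapping genes were not given in the sources used here. Without strand, reads from the shared bases cannot be assigned to either gene.

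**Figure D1:**
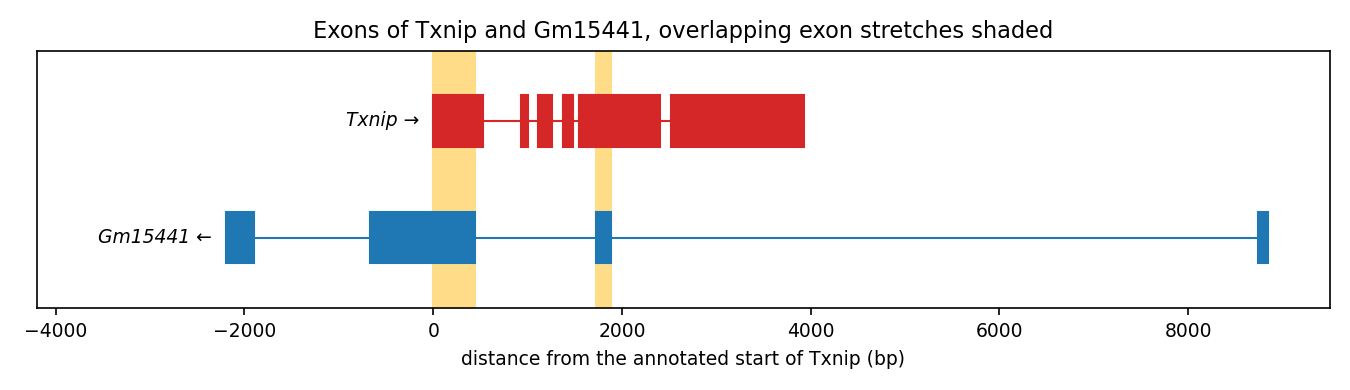
Exons of Txnip (red, transcribed to the right) and Gm15441 (blue, transcribed to the left) against distance in base pairs from the annotated start of Txnip; shading marks the 2 stretches, 606 bases together, where exons overlap.

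In the cultures, Gm15441 moved with Txnip. Its reads amounted to 24.4% to 33.5% of the Txnip reads of the same library, with a median of 29.0% over the 18 libraries. In the tumours the reads of both genes were equal in 14 of 16 libraries, including 6 in which both were at 0. Equal reads in at least 14 tumours were seen in 1.61% of 746 overlapping opposite-strand gene pairs with 100 or more reads. The values of Gm15441 were therefore not used as a second measurement of the locus, and its tumour values cannot be told apart from those of Txnip.

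Txnip was highest in log-phase cultures with DkkMo. Normalized counts, which are reads divided by a size factor per library, were 2733, 3086 and 2148 in the 3 log-phase DkkMo cultures. The log-phase scrMo cultures had 280.3, 138 and 148. The log-phase NT cultures had 1343, 353 and 225, so the first of these replicates was between the levels of DkkMo and of its own group. All 3 DkkMo cultures lay above every other culture of the series, whereas the NT and scrMo cultures in log phase overlapped. Groups without overlap were seen for 26.9% of all genes between DkkMo and scrMo in log phase and for 24.1% between DkkMo and NT. The mean with DkkMo, 2656 ± 474 (SD, n = 3), was 14.1 times that with scrMo, 189 ± 79.2, and 4.15 times that of NT, 640.5 ± 612.

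On the deposited scale, a variance-stabilised log2 scale that compresses differences between low values, Txnip differed by 2.78 ± 0.28 (standard error) between DkkMo and scrMo in log phase. The difference was 1.91 ± 0.28 against NT, and scrMo differed from NT by -0.87 ± 0.28. These 3 comparisons share groups and are not independent of each other. In the same fit 1.97% of all genes passed the thresholds used for calling between DkkMo and scrMo in log phase. These 326 genes became 204 without log-phase DkkMo replicate 2 and 1158 on log2 of the normalized count plus 1. As Txnip was chosen on that comparison, nothing is read from its place among them.

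Under nutritional stress the Txnip values lay close together. NT cultures had normalized counts of 401, 471 and 428, scrMo cultures 544, 403 and 389, and DkkMo cultures 536, 555 and 647. The DkkMo cultures were all above the NT cultures, but they overlapped the scrMo cultures, whose first replicate reached 544. Group means were 433 ± 35.3 for NT, 445 ± 85.5 for scrMo and 579 ± 59.8 for DkkMo (SD, n = 3 each).

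**Figure D2:**
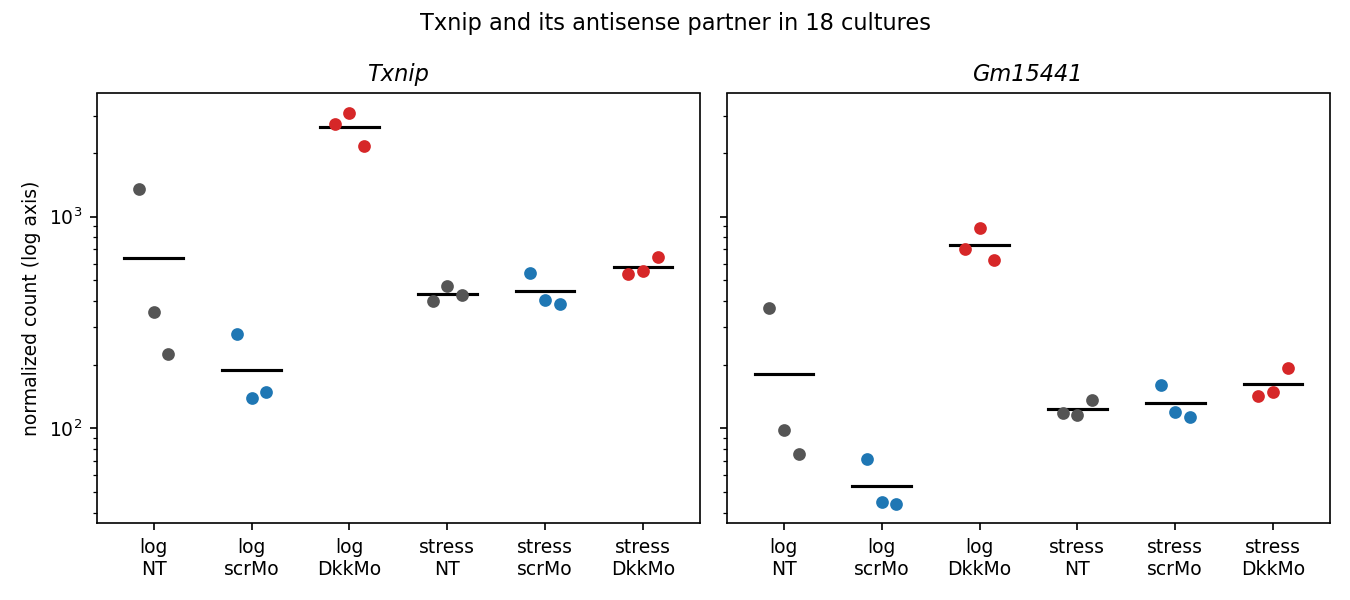
Normalized counts (log axis) of Txnip, left, and Gm15441, right, in each of the 18 cultures by growth state and treatment; points are cultures and lines are group means of 3. The 3 log-phase DkkMo cultures, at 2148 to 3086 for Txnip, sit above all others, and the log-phase NT cultures spread from 225 to 1343.

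Arranged by mean, the Txnip groups ran from log-phase DkkMo through log-phase NT, stressed DkkMo, stressed scrMo and stressed NT to log-phase scrMo. The log-phase NT cultures were so widely spread that they overlapped every group except log-phase DkkMo, and stressed scrMo overlapped both stressed neighbours. The places of those groups in the order are therefore not distinguishable from the ones they overlapped. Stressed DkkMo lay wholly above stressed NT, a pair of groups between which 59.4% of all genes did not overlap. Log-phase scrMo cultures reached at most 280.3 normalized counts, and stressed cultures had 389 or more. Txnip was chosen with the log-phase scrMo libraries, so nothing is read from that gap. Between stress and log phase in NT cultures, 74.6% of all genes did not overlap. Between growth states, the mean with DkkMo in log phase was 4.59 times that under stress, while with scrMo the mean under stress was 2.36 times that in log phase. Those opposite differences rest on the log-phase libraries that singled out Txnip and were not tested.

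The effect of DkkMo on Txnip under nutritional stress used libraries that played no part in choosing it. DkkMo against scrMo gave a difference of 0.26 ± 0.28 on the deposited log2 scale, with an adjusted p of 0.556 (limma, Benjamini-Hochberg over all genes). DkkMo against NT gave 0.28 ± 0.28 with an adjusted p of 0.438, although the groups did not overlap, as was so for 59.4% of all genes in that comparison. scrMo against NT gave 0.02 ± 0.28 with an adjusted p of 0.961. None of these was called, a call being an adjusted p below 0.05 with a change over 1.5-fold. The standard error was shared by all 6 groups and took in the wide log-phase NT cultures. When the groups compared were fitted alone, the adjusted p fell to 0.00704 for DkkMo against scrMo and to 0.000321 for DkkMo against NT, at the same differences, which remained below 1.5-fold.

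NT cultures under stress did not differ detectably in Txnip from those in log phase. The difference was -0.16 ± 0.28, with an adjusted p of 0.628 by limma. It depended on the first log-phase NT replicate: without that library stress was higher by 0.37 on the log2 scale, with an adjusted p of 0.0408, still below 1.5-fold. No exact permutation test on groups of 3 could give a two-sided p below 0.1, so single-gene permutation tests were not used in the cultures.

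**Figure D3:**
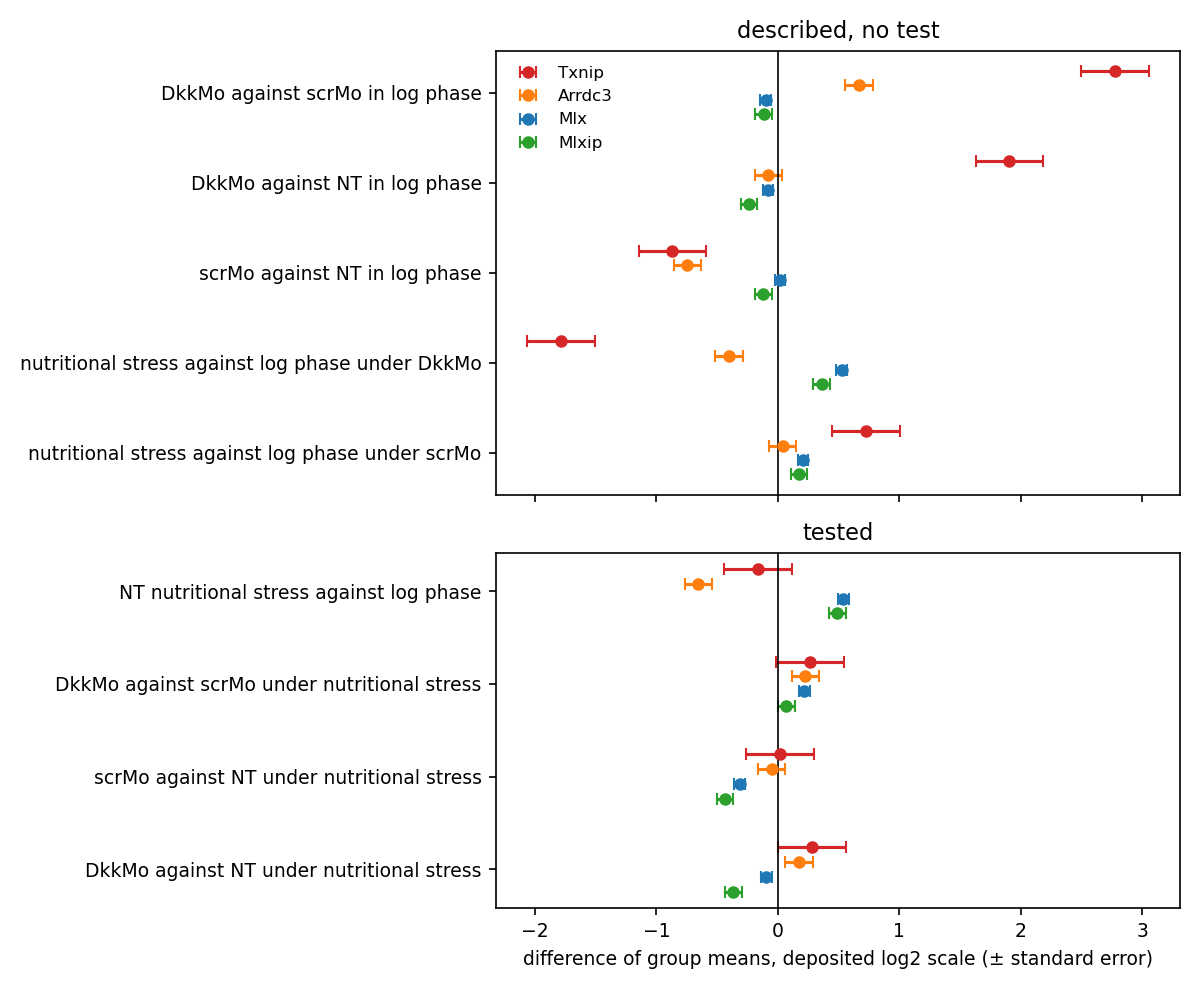
Differences between group means of Txnip, Arrdc3, Mlx and Mlxip in the cultures, on the deposited log2 scale with standard errors from the limma fit; upper panel, comparisons that use log-phase DkkMo or scrMo cultures and were not tested; lower panel, tested comparisons. Txnip is far from 0 mainly in the upper panel, at 2.78 for DkkMo against scrMo in log phase.

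Arrdc3 (ENSMUSG00000074794; chromosome 13, 80883384 to 80896042, plus strand), a second alpha-arrestin known for promoting turnover of beta-adrenergic receptors, fell under nutritional stress in NT cultures. Its normalized counts were 2984, 2976 and 3152 in log phase and 1815, 1766 and 1896 under stress, without overlap, as was so for 74.6% of all genes. The difference was -0.66 ± 0.11 on the deposited log2 scale, adjusted p = 3.97e-05 by limma. With each library centred on its median it was -0.50, below the fold threshold, because library medians were 0.16 lower under stress. Of all genes, 18.1% were called in this comparison.

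Arrdc3 was the only other member that, like Txnip, was lower with scrMo than with DkkMo in log phase. Its normalized counts were 1850, 1257 and 2087 with scrMo against 2457, 2966 and 3202 with DkkMo. The groups did not overlap, as was so for 26.9% of all genes in that comparison, and the mean with DkkMo was 1.66 times that with scrMo. Unlike those of Txnip, the DkkMo values overlapped those of NT, and it was the scrMo cultures that stood below both. On the log2 scale the DkkMo cultures differed from NT by -0.08 ± 0.11 and the scrMo cultures from NT by -0.75 ± 0.11, neither of which was tested.

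Under stress the Arrdc3 levels of the 3 treatments were near each other. DkkMo cultures had 1974, 2209 and 2109 normalized counts and scrMo cultures 1912, 1740 and 1611. The values did not overlap, as was so for 44.9% of all genes, and the difference of 0.23 ± 0.11 was not called (limma, adjusted p = 0.170). Neither DkkMo (adjusted p = 0.224) nor scrMo (adjusted p = 0.735) was called against NT.

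Mlx (ENSMUSG00000017801; chromosome 11, 101087277 to 101092207, plus strand), the obligate partner of MondoA, was more abundant under nutritional stress than in log phase. In NT cultures its normalized counts were 2080 to 2113 under stress and 1307 to 1394 in log phase. The difference of 0.54 ± 0.04 had an adjusted p of 2.41e-09 by limma but was below 1.5-fold on the deposited scale. It passed that fold on the log2 scale of normalized count plus 1, at 0.63, and with libraries centred on their medians, at 0.70.

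Under stress Mlx was lowest with scrMo. scrMo cultures had 1574, 1660 and 1675 normalized counts and DkkMo cultures 1889, 1966 and 1993, so the groups formed separate levels. Of all genes, 63.5% did not overlap between scrMo and NT, 59.4% between DkkMo and NT and 44.9% between DkkMo and scrMo. scrMo against NT gave -0.31 ± 0.04 (limma, adjusted p = 1.18e-05), and DkkMo against scrMo gave 0.22 ± 0.04 (adjusted p = 0.00140). DkkMo against NT gave -0.10 ± 0.04 with an adjusted p of 0.0891. All 3 were below 1.5-fold. In log phase the Mlx cultures ranged only from 1235 to 1451 over all treatments.

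Mlxip (ENSMUSG00000038342; chromosome 5, 123394798 to 123457932, plus strand), which encodes MondoA itself, was also more abundant under stress than in log phase. In NT cultures it had 1619 to 1834 normalized counts in log phase and 2460 to 2616 under stress, a difference of 0.49 ± 0.07 (limma, adjusted p = 3.60e-06), below 1.5-fold. With each library centred on its median it was 0.65 and was called. Under stress it was at 1753 to 1853 with scrMo and at 1803 to 1985 with DkkMo. Those ranges overlapped each other and lay wholly below NT. Of all genes, 63.5% did not overlap between scrMo and NT and 59.4% between DkkMo and NT. scrMo against NT gave -0.44 ± 0.07 (adjusted p = 4.14e-05) and DkkMo against NT gave -0.37 ± 0.07 (adjusted p = 0.000314), whereas DkkMo against scrMo gave 0.07 ± 0.07 (adjusted p = 0.522).

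Between DkkMo and scrMo in log phase, where Txnip differed most, both glucose-sensing factors differed little and in the other direction. The differences were -0.10 ± 0.04 for Mlx, at 1235 to 1290 normalized counts with DkkMo and 1321 to 1451 with scrMo, and -0.12 ± 0.07 for Mlxip, whose groups overlapped. Neither was tested, and transcript levels do not measure MondoA or Mlx protein, location or activity.

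**Figure D4:**
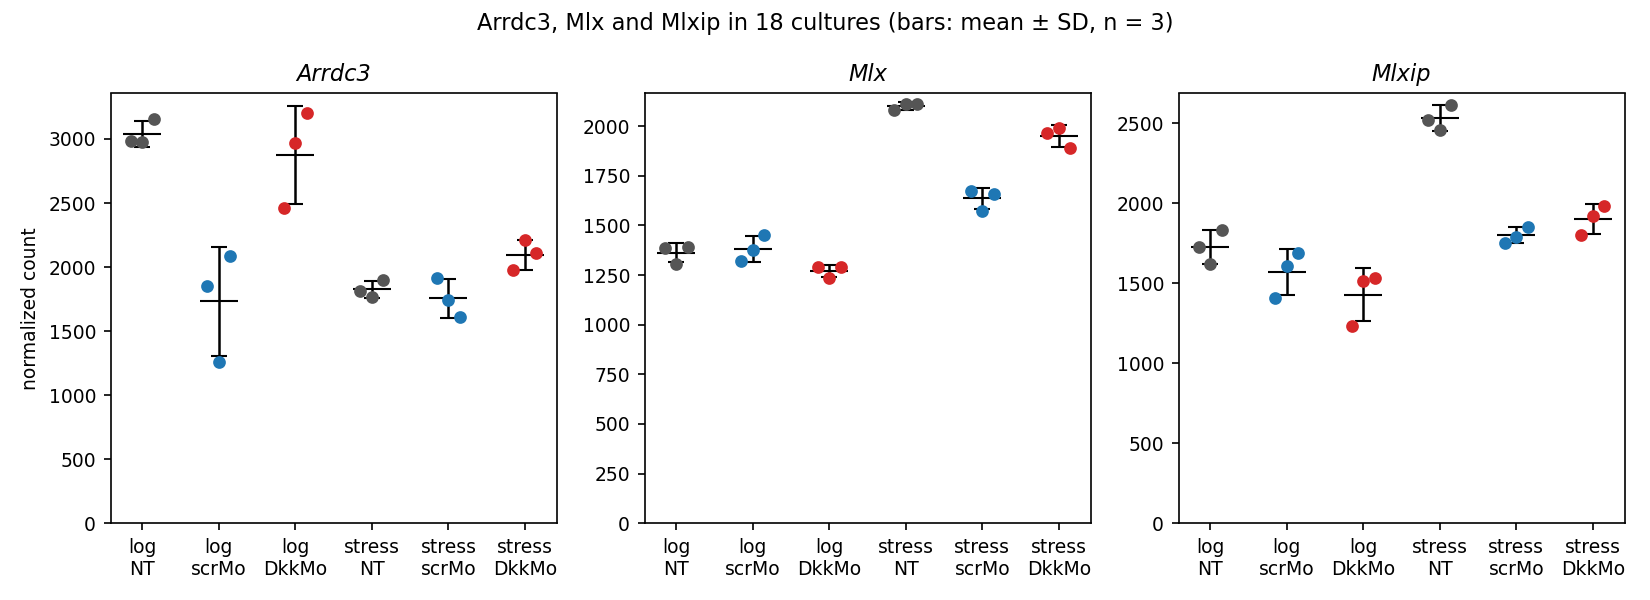
Normalized counts of Arrdc3, Mlx and Mlxip in the 18 cultures (axes from 0); points are cultures, bars are mean ± SD of 3. Arrdc3 is lowest in log phase with scrMo and under stress, and Mlx and Mlxip are highest in stressed NT cultures, at 2080 to 2113 and 2460 to 2616.

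Levels of the members were compared with each other per kilobase of exon. In log phase with DkkMo, Txnip stood at 850.4 ± 152 normalized counts per kilobase (SD, n = 3), above Mlx at 636 ± 15.5, Arrdc3 at 459 ± 60.7 and Mlxip at 171 ± 20.0. With scrMo in log phase it was the lowest of the 4, at 60.5 ± 25.4 per kilobase, with Mlx at 692 ± 32.7. Under stress Mlx led in all treatments, at 819 to 1051 per kilobase as group means, and Txnip was at 139 to 185.

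The wider pathway was examined with 69 genes in 8 lists of partners, targets, transporters and regulators, of which 55 were listed in the cultures. In NT cultures under stress against log phase, 7 were higher and 8 lower by the call rule, or 27.3% of those listed, beside the 18.1% of all genes, of which 8.22% were higher and 9.90% lower. Higher genes made up 45.4% of the 3000 genes called, and 66.7% of the 3364 called with centred libraries. The median difference of the 55 listed pathway genes was 0.00 on the log2 scale and that of all genes -0.01.

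Among reported targets of MondoA or its homologue ChREBP, 2 of 13 listed genes rose and 3 fell. The log2 differences were -1.61 for G6pdx, the entry enzyme of the pentose phosphate pathway, -1.40 for Elovl6, a fatty acid elongase, and -0.86 for Klf10, a zinc finger repressor. They were 1.04 for Gpd1, a glycerol phosphate dehydrogenase, and 0.65 for Tkt, transketolase. Genes of this list therefore moved in both directions, and its median of -0.04 was near that of all genes.

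Of the 6 listed genes of glucose uptake and phosphorylation, Slc2a1, which encodes the glucose transporter GLUT1, rose (log2 difference 0.64) and Slc2a6, another transporter of the family, fell (-0.79). Slc2a1 had a mean of 12035 ± 704 normalized counts under stress and 7748 ± 2033 in log phase (SD, n = 3). The other 4 did not pass.

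Among 12 listed genes that act on Txnip protein, the AMP-activated kinase subunits Prkab2 and Prkaa2 rose, with log2 differences of 1.14 and 0.89, as did the ubiquitin ligase gene Nedd4l (0.68). Wwp2, another ligase of that family, fell (-1.24). Prkab2 had 1752 ± 46.2 normalized counts under stress against 654 ± 4.84 in log phase, and Wwp2 had 1378 ± 41.1 against 3633 ± 153.

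Elsewhere the calls were few. In the Mlx network, Mxd3, a Max-binding repressor, fell (-0.84) and the other 9 listed genes did not pass. Of 6 other regulators of Txnip, the glucocorticoid receptor gene Nr3c1 fell (-0.60, and -0.44 with centred libraries, below 1.5-fold), as did its cochaperone and target Fkbp5 (-0.79). Of the 5 thioredoxin system genes, Txnrd1, cytosolic thioredoxin reductase, rose (0.77). Neither listed NLRP3 inflammasome gene and not the single other alpha-arrestin, Arrdc1, passed. All 7 listed proliferation genes fell, among them Top2a (-4.04) and Mki67 (-3.88), and the part of proliferation in the member values was not tested. The 2 listed of 5 endothelial markers, Pecam1 and Vwf, summed to 308 to 408 normalized counts in log phase and 1302 to 1883 under stress over all treatments, without the defining markers Cdh5 and Kdr being listed.

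Between treatments under stress the pathway lists held few calls. DkkMo against scrMo had 1, which is 1.82% of those listed beside 1.00% of all genes: Txnrd3, a thioredoxin reductase, which was lower with DkkMo (-0.84), at 315 ± 5.98 normalized counts against 752 ± 42.4. scrMo against NT had 1 beside 4.43% of all genes, Ldha, lactate dehydrogenase A, which was lower with scrMo (-0.59). DkkMo against NT had 0 by limma beside 2.66% of all genes.

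Between DkkMo and scrMo in log phase, the comparison that chose Txnip, none of the 55 listed pathway genes differed by over 1.5-fold in mean deposited value. This included the 13 other targets of MondoA or ChREBP, with a median difference of 0.01. Of all genes, 1.97% were called there, by a rule that also needs an adjusted p below 0.05. At so low a share, 0 of 55 is not read as a result about the pathway. Between DkkMo and NT in log phase, those 13 targets had a median difference of 0.04, beside 0.005 for all genes. Between DkkMo and scrMo in log phase, the 7 listed proliferation genes had a median difference of 0.76, beside 0.005 for all genes. Against NT in log phase, the median of these 7 was 0.18 with DkkMo and -0.45 with scrMo, beside 0.005 and -0.001 for all genes. The part of proliferation in the Txnip values was not tested. The 8 osteoblast and chondroblast markers had summed normalized counts of 184095 to 213009 with DkkMo and 117426 to 156349 with scrMo in log phase. The log-phase NT cultures had 240071 to 271683, above DkkMo, whereas their Txnip values lay below those with DkkMo. The part of these markers in the Txnip values was not tested either.

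The genes whose deposited values ran most like those of Txnip over the 18 cultures were sought among 1025 genes above the median level with group means at least 1 apart. The 8 with the highest Pearson correlation were Plin4 (0.71), Thbs1 (0.71), Bnip3 (0.70), Col12a1 (0.70), Ero1l (0.67), Arrb1 (0.66), Cst3 (0.66) and P4ha1 (0.66). They include a lipid droplet coat protein, Plin4, the matrix proteins Thbs1 and Col12a1, and Bnip3, Ero1l and P4ha1, which are well known hypoxia-responsive genes. The ranking used the log-phase DkkMo and scrMo libraries on which Txnip was chosen. All 8 genes had their highest group mean in log phase with DkkMo, P4ha1 for example at 9743 against 4415 to 6995 elsewhere. Nothing is therefore read from which kinds of genes are among them. The 4 lowest were Aldh3a1 (-0.65), Gfra1 (-0.59), Adgrg6 (-0.59) and Fam110c (-0.59).

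These correlations are descriptions over libraries that share 6 groups. By Spearman's rank the same 8 genes gave 0.21 to 0.60. None came near Gm15441 at 0.995, which shares exonic bases with Txnip, and Arrdc3 was at 0.57, Mlx at -0.31 and Mlxip at -0.38. Bnip3, for example, had a mean of 7700.4 ± 387 normalized counts in log phase with DkkMo, 4581 ± 2766 with scrMo and 2723 ± 1559 in NT. Its scrMo and NT cultures overlapped.

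In the tumours Txnip was listed at 0 in all 4 tumours of the combination. Here and in all tumour comparisons below, reads listed for Txnip may belong to Gm15441, from which they cannot be told apart. The tumours with DRB alone had 12576, 686, 12376 and 121 reads. NT tumours had 4954, 1, 2 and 31531 reads, and tumours with DkkMo alone 638, 77, 0 and 0. The combination tumours thus lay below all DRB tumours, while NT tumours spanned almost the whole range by themselves.

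Some genes that every cell uses were at or near 0 in the same tumours, while others were read. Eef2, which encodes the elongation factor that moves the ribosome, was at 0 in 3 of the 4 combination tumours and at 6 reads in the other, at 0 in the same 2 DkkMo tumours as Txnip, and at 2 and 8 reads in the 2 NT tumours with 1 and 2 Txnip reads. Where Txnip was at 121 reads or more, Eef2 had 1623 reads or more. Rplp0, a ribosomal protein gene, had 0, 98, 0 and 0 reads in the combination tumours and 520 to 41101 in the DRB tumours, and it had 170 reads in one of the DkkMo tumours with 0 Txnip reads. Actb, cytoskeletal actin, kept 483 to 5686 reads in the combination tumours, and 2336 and 531 in the same 2 NT tumours. Vim, the intermediate filament gene vimentin, had 83 to 446 reads in the combination tumours, and Eef1a1, another elongation factor, had 476, 9501, 34 and 128. Hsp90ab1 and Tbp were looked at as well, and both were at 0 in all 4 combination tumours. They did not follow Txnip in the DRB tumours. Hsp90ab1 was at 0 in the DRB tumour with 121 Txnip reads. Tbp had 3 and 1 reads in the DRB tumours with 12576 and 12376 Txnip reads. All of these genes were chosen after values were seen. Whether a listed 0 of Txnip is a failed measurement cannot be told from these values, and in tissue fewer cells of a type and less RNA per cell cannot be told apart either.

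**Figure D5:**
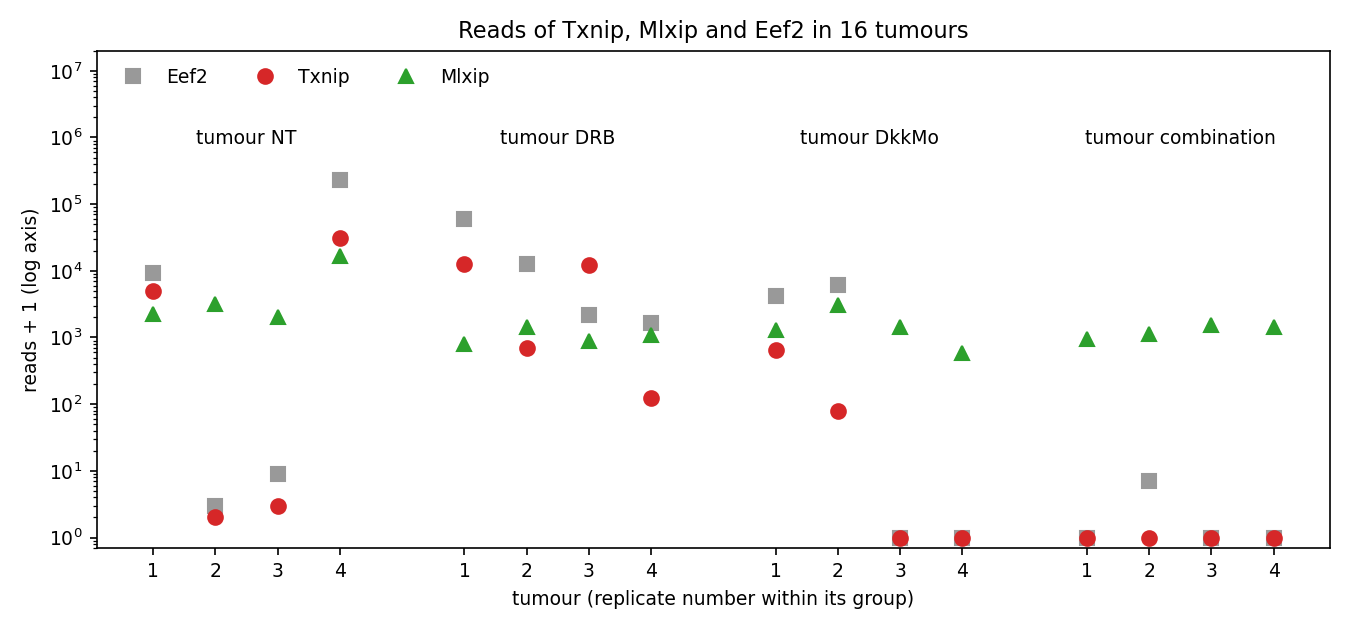
Reads plus 1 (log axis) of Txnip, Mlxip and Eef2 in each of the 16 tumours, ordered by group and replicate number. Txnip and Eef2 are near the floor in the same tumours, whereas Mlxip has 593 to 16583 reads throughout.

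Combination against DRB gave a Txnip difference of -5.52 ± 1.65 on the deposited log2 scale with an adjusted p of 0.0471 by limma, and it was called. The size depends on the value that the scale gives to 0 reads and is no measure of fold. The DRB libraries held 85.3 to 106 megareads, with 46.7 to 73.5% of reads in their top 10 genes and 165 to 316 genes at 0. The combination libraries held 28.3 to 41.1 megareads, with 13.5 to 18.6% in the top 10 genes and 537 to 1474 genes at 0. None of these ranges overlapped, and their part in the difference was not tested. Of all genes, 7.35% were called in this comparison, and 20.4% did not overlap between the groups, as Txnip did not. The median difference of all genes was -0.71, and library medians were 1.04 lower in the combination, relative to which Txnip differed by -4.49 with an adjusted p of 0.0560. An exact permutation test on the means gave a two-sided p of 0.0286, the smallest that 4 against 4 allows, and 0.171 after Benjamini-Hochberg adjustment over 6 such tests. The call was lost in 7 of 8 fits that left out a tumour, at adjusted p of 0.0714 to 0.147, and held only without the DRB tumour with 121 reads (0.0214).

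No other tumour comparison called Txnip. DkkMo against NT gave -2.81 ± 1.65 (limma, adjusted p = 0.467), and DRB against NT gave 1.73 ± 1.65 (adjusted p = 0.720). With 1 tumour left out these ranged from -4.04 (without NT replicate 2) to -1.09 (without NT replicate 4) and from 0.50 to 3.45 (without the same 2 tumours, respectively). The difference between the effects of DkkMo with and without DRB was -2.71 ± 2.33 (adjusted p = 0.832). In these 3 comparisons limma called 0 genes of 12595, with 1554, 1500 and 853 at an unadjusted p below 0.05, and limma voom on the recovered reads also called 0. Without the second NT tumour 222 genes were called for DkkMo against NT, and without the fourth 139 for DRB against NT, Txnip being in neither set. The median difference of all genes was -0.54, 0.28 and -0.31, in the same order.

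Mlxip was read in every tumour, with 593 to 16583 reads. Its normalized counts were 1960, 976, 2329 and 19449 in NT tumours and 1717, 3177, 881 and 1049 with DRB. With DkkMo they were 696, 2311, 1746 and 536, and in the combination 958, 944, 1229 and 1012. All groups overlapped, the fourth NT tumour standing far above the rest. The 4 comparisons gave -1.36 ± 0.77 for DkkMo against NT, -0.50 ± 0.77 for the combination against DRB, -0.98 ± 0.77 for DRB against NT and 0.86 ± 1.09 for the difference of DkkMo effects. None passed, at adjusted p of 0.459 to 0.903 by limma, and the exact permutation tests gave two-sided p of 0.171, 0.314 and 0.429 for the first 3.

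Of the 69 pathway genes, 31 were listed in the tumours. For the combination against DRB, 5 of them were lower and 0 higher by the call rule in limma, 16.1% of those listed, beside 7.35% of all genes, with 6.92% lower. Fkbp5 differed by -4.17, Nedd4, a ubiquitin ligase gene, by -4.63, Mxd1, a Max-binding repressor, by -2.73, Prkag2, a subunit gene of AMP-activated kinase, by -2.55, and Hk2, hexokinase 2, by -1.54. After subtraction of the 1.04 difference in library medians these were -3.13, -3.59, -1.69, -1.51 and -0.51, the last, for Hk2, below 1.5-fold. With centred libraries 471 of 12595 genes were called in this comparison against 926, so the shares above do not carry over to that scale. Mxd1 was read at 3 to 45 reads in combination tumours and 88 to 1882 in DRB tumours.

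Some tissue markers differed between the same groups, and others overlapped. The summed normalized counts of the 9 osteoblast and chondroblast markers listed were 114798 to 1625405 in DRB tumours and 19633 to 104651 in combination tumours, without overlap. Not all of these markers went that way. Col1a1, a type I collagen gene, had 5891 to 8392 in DRB tumours and 10372 to 19271 in combination tumours, without overlap, and the bone phosphatase gene Alpl had means of 4047 and 8175. The only listed gene of 8 skeletal muscle markers, Myl1, had 819 to 2502 in DRB tumours and 5407 to 12771 in combination tumours, also without overlap. The 5 endothelial markers overlapped, at 19423 to 109410.3 and 25533 to 33386. The 3 macrophage markers listed of 8 had 8191 to 23963 and 4951 to 9163, which also overlapped. So did the listed T cell, erythroid and adipocyte markers, the last at 1501 to 7888 and 825 to 7283. The part of tissue composition in the Txnip difference was not tested.

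Over the 16 tumours, the 5 genes most like Txnip of 3476 compared were Trappc8 (Pearson r = 0.97), Edem1 (0.96), Arih1 (0.95), Scin (0.94) and Osbpl1a (0.94). Mlxip was at 0.55 and Gm15441, with its shared reads, at 1.00. None of the 5 was among the 8 most like Txnip in the cultures. These values too are descriptions, over libraries that differed in how many genes were at 0.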

How the data were processed

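RNA from 18 cultures and 16 tumours had been sequenced. The authors aligned reads to GRCm38 with HISAT2 2.1.0, used SAMtools 1.9 and featureCounts (Subread 2.0.0), and deposited variance-stabilised log2 values from DESeq2, each set normalised on its own. Here the transformation was reversed from the values, which gave whole reads (within 0.05) for 100% of culture values and 97.2% of tumour values, many of which carry fewer decimals. Because 14 culture rows spanned more than 6 within a group they were set aside, leaving 16562 culture and 12595 tumour genes.

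Group means of the deposited log2 values were compared by limma (version 3.58.1, R 4.3.3), which fitted all libraries of a set together with a variance trend. Genes above the lowest value in at least 3 cultures or 4 tumours were kept. P-values were adjusted by Benjamini-Hochberg over all genes, and genes were called beyond 1.5-fold with an adjusted p under 0.05. The scripts were tested on simulated data. Members and lists were chosen with earlier results of these data known. Named genes were the members, Gm15441, up to 5 called genes per list and comparison, and the 8 highest and 4 lowest correlations with Txnip in cultures (5 highest in tumours), predicted genes left out. Alternatives covered filters, scaling, variance models and left-out libraries. Promoters came from RefSeq (GRCm38.p6) and covered all 5 members.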

Additional observations from a re-analysis of the deposited data

How the results depend on the processing

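Txnip was called only for the combination against DRB. That call was lost without the variance trend (-5.52, adjusted p 0.0551), with centred libraries (-4.49, adjusted p 0.0560) and with limma voom on recovered reads (-12.38, adjusted p 0.106), the last chosen after seeing the data. Over all its alternatives the adjusted p ran from 0.0115 to 0.147. Leaving out 1 tumour gave -6.80 to -4.53. The cause was not tested.

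Txnip in NT cultures, stress against log phase, changed sign with array weights (0.078) and ranged from -0.52 to 0.37 with 1 library left out, the last without log-phase NT replicate 1. scrMo against NT under stress changed sign with array weights (-0.017), centring (-0.022) and quantile normalization (-0.017), and ranged from -0.082 to 0.078 with 1 library left out, negative without stress NT replicate 1 (-0.016) or scrMo replicate 1 (-0.082). Arrdc3 for scrMo against NT changed sign with quantile normalization (0.0085), and Mlxip for the combination against DRB changed sign with centring (0.54) and quantile normalization (0.46), none of them called. The other alternatives left Txnip uncalled with the same sign in the remaining comparisons.

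Same-numbered stress DkkMo and scrMo cultures did not deviate together (r = -0.06, -0.03 and 0.01), so those numbers were not taken as pairs. With the replicate block, fitted on the compared groups alone, the Txnip difference was 0.26 (limma, adjusted p 0.00915, below 1.5-fold) and 168 genes were called. Those groups alone without a block gave an adjusted p of 0.00704 by limma and also 168 genes, against 166 in the fit of all groups. Same-numbered log-phase DkkMo and scrMo cultures gave 0.62, -0.05 and 0.57, and differently numbered ones -0.68 to 0.30. Whether the log-phase numbers mark pairs is not known, and the log-phase differences above were fitted without a block. With the replicate block, fitted on those groups alone, 316 genes were called by limma, against 326 in the fit of all groups. Stressed NT titles repeat a number and tumours carry none that pairs them, so no block was fitted there.

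Counts of called genes depended on the scale. For DkkMo against scrMo under stress, log2 of the count plus 1 called 891 and voom 918, and for NT stress against log phase 6251 and 6318 against 3000. For scrMo against NT these were 2923 and 2946 against 734, and for DkkMo against NT 2317 and 2305 against 441. For the combination against DRB, 926 became 1636 with its groups alone, 1670 with array weights, 522 above the median gene, 471 with centring and 0 with voom (2647 at unadjusted p below 0.05). It fell to between 242 and 532 without DRB replicate 1 or 2 or any combination tumour. Where no gene had been called, DkkMo against NT gave 222 without NT replicate 2 and 2 without DkkMo replicate 2, DRB against NT gave 139 without NT replicate 4, 2 without NT replicate 3 and 4 with array weights, and DkkMo against NT gave 1 with quantile normalization. The interaction gave 1 with array weights and 1 without DkkMo replicate 4. For the combination against DRB, the higher share of calls went from 5.83% to 36.7% with centring. The filter for genes above the median gene left out Txnip in tumours and gave no value, and the interaction uses all 4 groups, so it had no fit on fewer.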
